A study of Homo sapiens with 11 samples.

Results

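Expression of 33 target genes of the tumour suppressor p53 was examined in A549 and H1299 cells, 2 lines grown from human lung cancers. A549 has intact p53, while H1299 has none. The 33 members were taken by gene symbol from the RNA-seq table of each line. All 33 were listed among the 21316 genes of the A549 table and 31 among the 20915 genes of the H1299 table. SPATA18 and EDA2R had no row in the H1299 table used here, and TIGAR stood in both tables under its older symbol C12orf5.

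Each line was represented by 2 libraries from cells with a short hairpin RNA against METTL3 (shMETTL3, numbered 1 and 2) and by 1 library from cells with a hairpin against GFP, a control sequence (shGFP). METTL3 is the catalytic subunit of the enzyme that writes N6-methyladenosine (m6A) into mRNA. Cells were cultured in DMEM with fetal bovine serum and antibiotics, and poly(A) RNA was sequenced from stranded libraries. Whether numbers 1 and 2 denote different hairpins, separate cultures or repeat libraries is not in the labels. The p-values therefore measure the spread between these libraries, which may be technical. Each line is 1 tumour-derived line. Line, p53 status and the table that held its libraries therefore cannot be told apart.

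p53 is a transcription factor that binds as a tetramer to a pair of adjacent half-sites and switches on genes that halt the cell cycle, trigger apoptosis or repair DNA. MDM2, itself a target, marks p53 for degradation and so closes a feedback loop that keeps its level low in unstressed cells. Loss of p53 is among the most frequent alterations of lung cancer, and the target genes keep other regulators when p53 is gone.

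The libraries held 14447379 and 16504759 reads in genes for A549 shMETTL3 1 and 2, and 19966206 for A549 shGFP. The H1299 libraries held 23099169 and 25443078 reads for shMETTL3 1 and 2, and 26351309 for shGFP. METTL3 itself stood at 41.6 and 41.7% of the shGFP library in A549 shMETTL3 1 and 2, and at 45.4 and 36.9% in H1299. The epithelial keratin genes KRT8 and KRT18 were read in every library. After joint scaling their log2 differences, A549 minus H1299, were 5.49 and 2.46. EPCAM and CDH1, the other epithelial markers checked, had at most 2 and 5 reads in any H1299 library. CDH1 had a deposited value of 646 in A549 shMETTL3 1, above 284 in A549 shMETTL3 2 and 386 in A549 shGFP, and EPCAM showed the same order with 75.4, 14.1 and 22.6. All 4 epithelial markers were highest in A549 shMETTL3 1 among the A549 libraries, and that library thus stood apart. The mesenchymal markers VIM and CDH2 were read in every library of both lines, with log2 differences of -1.54 and -1.34 on the same scale. The leukocyte marker PTPRC had at most 3 reads in any library and the endothelial marker PECAM1 at most 63, while the fibroblast marker COL1A1 reached 257 reads and stood higher in the shMETTL3 libraries, with values given beside the knockdown results. The erythroid marker HBB had at most 2 reads in A549 and no row in the H1299 table used here.

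MDM4, which binds p53 and blocks its activity, was 1.28 higher in A549 than in H1299 on the log2 scale after joint scaling (SE 0.13, limma adjusted p = 8.78e-05). CDKN2A, whose product ARF restrains MDM2, had no row in the A549 table used here and deposited values of 231, 155 and 178 in H1299 shMETTL3 1, shMETTL3 2 and shGFP.

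Promoter sequence was looked up to show which members carry a p53 element close to their start. Promoters from RefSeq (GRCh38.p14, 250 bases before to 50 after the start) were found for 26 of the 33 members. A half-site was an exact match to the p53 decamer, and a full site was a pair of half-sites with a spacer of at most 1 base, at most 3 mismatches over 20 bases and the C and G of each core intact. Both strands are covered, since the decamer reads as itself on the opposite strand, and a full site may hold an exact half-site. A half-site stood in the promoters of 3 members, FDXR, AEN and PLK2, against 6.63% of all 35116 promoters. A full site stood in those of 4 members, PMAIP1, FDXR, AEN and GDF15, against 2.38% of all promoters. A match describes letters only and is not a measured binding site. The match of GDF15 lies past the start and is not printed. The stretches before the start are printed below in lower case with the matched bases in capitals, each on the strand of its gene.
AEN, chr15:88621286-88621339, plus strand, 2 mismatches: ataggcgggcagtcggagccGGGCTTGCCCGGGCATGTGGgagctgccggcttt
FDXR, chr17:74872995-74873035, minus strand, 3 mismatches: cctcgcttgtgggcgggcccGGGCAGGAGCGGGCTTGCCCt
PMAIP1, chr18:59899791-59899850, plus strand, 3 mismatches: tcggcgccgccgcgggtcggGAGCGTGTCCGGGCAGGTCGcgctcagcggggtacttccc
PLK2, chr5:58460189-58460238, minus strand, exact half-site: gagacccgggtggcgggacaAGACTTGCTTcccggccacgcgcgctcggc
No promoter was at hand for TNFRSF10B, TP53INP1, RRM2B, TNFRSF10C, GADD45A, FBXO22 and PHLDA3.

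The first comparison asked how the targets stood in A549, with intact p53, relative to H1299, without p53. Most were higher in A549. Of the 31 members listed in both tables, 25 were higher and 2 lower by limma at an adjusted p below 0.05, and the median log2 difference was 1.30. The 25 include PHLDA3, which was nearly unread in H1299 and could only come out higher in A549. Among all 14645 genes tested, 35.5% were called higher and 36.4% lower, with a median of -0.01, and 80.6% of members were called higher. The lines differed in 71.9% of genes tested, and a call alone therefore says little about a single member. Levels are read counts relative to library size (CPM) after all 6 libraries were scaled together, and differences are on log2(CPM + 1), which understates those of weakly read genes. In bulk RNA, fewer cells expressing a gene and less of its RNA per cell cannot be told apart. Values compare a gene between libraries and not one gene with another, since no gene lengths were used.

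All 31 members passed the filter of a mean of 1 CPM, PHLDA3 only through its A549 libraries. PHLDA3 could thus only come out higher in A549, and the member counts and medians between lines include it. A difference of at least 2-fold was seen in 19 members higher in A549 and 2 lower, against 17.4% and 18% of all genes. The 3 A549 libraries lay above the 3 H1299 libraries in 25 members and below them in 2, against 38.1% and 38.6% of all genes. The shGFP libraries alone, 1 for each line and hence without a test, gave 19 members at least 2-fold higher and 2 lower, against 17.8% and 18.3% of all genes. Those 19 held PMAIP1 in place of TP53INP1. Without A549 shMETTL3 1 the test called 25 members higher and 2 lower, with PLK3 in place of XPC. The split of calls moved with the scaling. With the deposited values or with scaling to the total of reads, the median of all genes moved to 0.48 and 0.42, and 69.7% and 69.4% of calls were higher in A549, against 49.4% under the joint scaling. The members called were then 29 higher and 2 lower, with BBC3, PLK3, SERTAD1 and CCNG1 added. Of all genes, 8693 of 17284 were called higher on the deposited values and 7561 of 14676 with scaling to the total.

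**Figure D1:**
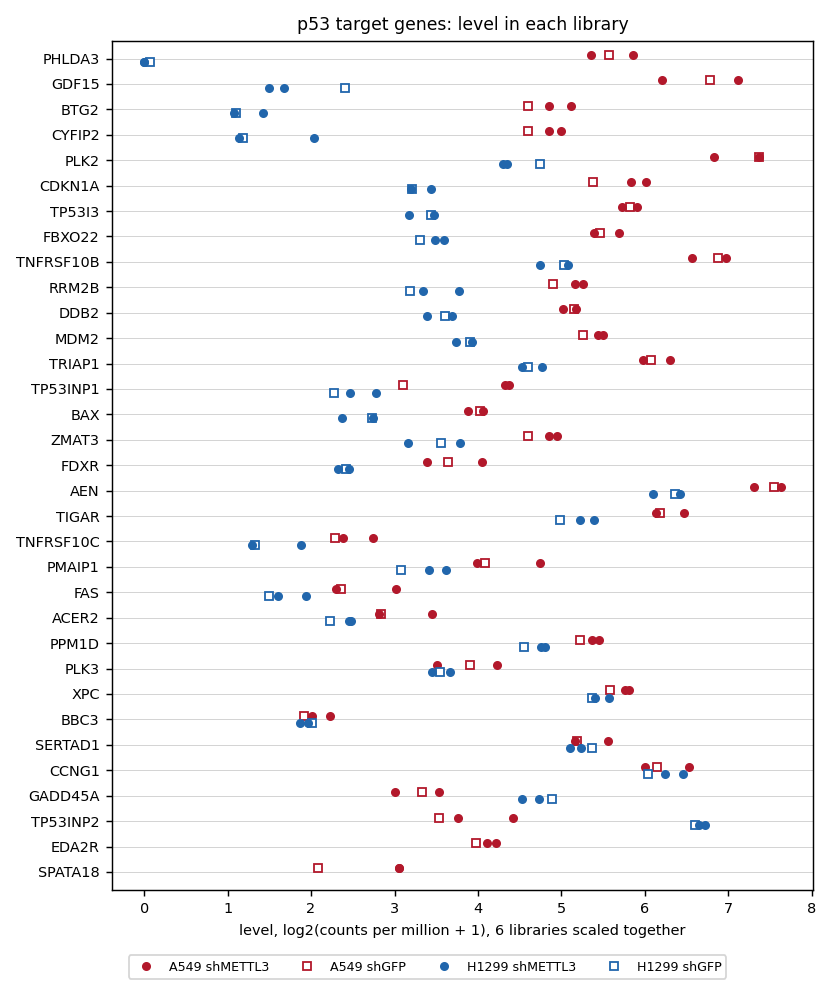
Level of each p53 target gene in every library, as log2(CPM + 1) on the x axis, with genes in rows ordered by the difference between lines. Filled circles are shMETTL3 libraries and open squares shGFP libraries, A549 in red and H1299 in blue. From PHLDA3 down to PPM1D every A549 library lies to the right of every H1299 library, as they do for XPC, and GADD45A and TP53INP2 show the opposite. EDA2R and SPATA18 have A549 points alone.

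Of the 6 arrest genes, 3 were called higher and 1 lower in A549, against 35.5% and 36.4% of all genes. CDKN1A encodes p21, the inhibitor of cyclin-dependent kinases that carries out much of the arrest by p53. It had 56.1 and 63.7 CPM in A549 shMETTL3 1 and 2 and 40.6 CPM in A549 shGFP, against 9.85, 8.21 and 8.23 CPM in the H1299 libraries in the same order. The lowest A549 library thus lay well above the highest H1299 library, and the log2 difference was 2.46 (SE 0.14, limma adjusted p = 6.22e-06). BTG2, an antiproliferative partner of the mRNA deadenylation machinery, averaged 28.3 ± 5.25 CPM in A549 and 1.31 ± 0.32 CPM in H1299 (SD, n = 3 each). PLK2, a polo-like kinase induced by p53, averaged 147 ± 29.9 CPM in A549 and 21.3 ± 3.96 CPM in H1299 (SD, n = 3 each). The log2 difference was 3.66 for BTG2 and 2.73 for PLK2.

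GADD45A ran the other way. This stress sensor, which other factors besides p53 also switch on, had 7.01 and 10.6 CPM in A549 shMETTL3 1 and 2 and 9.05 CPM in A549 shGFP, against 25.6, 22.0 and 28.6 CPM in H1299. No libraries overlapped, and the log2 difference was -1.43 (SE 0.17, limma adjusted p = 1.82e-04). The kinase gene PLK3 gave 0.33 (adjusted p = 0.168) and SERTAD1, a coregulator of E2F-driven transcription, gave 0.07 (adjusted p = 0.676). Neither passed the test, and their libraries overlapped between lines.

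Feedback genes, whose products act back on p53 or on its output, were called higher in 5 of 6 cases, against 35.5% of all genes, with a median log2 difference of 1.39. MDM2, the ubiquitin ligase of p53, had 42.4 and 44.2 CPM in A549 shMETTL3 1 and 2 and 37.4 CPM in A549 shGFP, against 14.2, 12.3 and 14.0 CPM in H1299. The groups stood far apart relative to their spread, with a log2 difference of 1.55 (SE 0.12, limma adjusted p = 2.27e-05). FBXO22, part of a ubiquitin ligase, differed by 2.05, and TRIAP1, a small inhibitor of apoptosis, by 1.48. ZMAT3, an RNA-binding zinc finger protein, differed by 1.30. PPM1D encodes the phosphatase WIP1, which shuts the damage response down, and its difference was smaller at 0.64, from 39.8 ± 3.11 CPM in A549 and 25.2 ± 2.33 CPM in H1299 (SD, n = 3 each). CCNG1, the cyclin G1 gene, was the exception. It had 62.8, 91.2 and 70.1 CPM in A549 shMETTL3 1, shMETTL3 2 and shGFP, against 86.8, 74.7 and 64.9 CPM in H1299, with full overlap and a log2 difference of -0.02 (adjusted p = 0.902). Its sign turned with the scaling, to 0.46 on the deposited values and 0.44 with scaling to the total, both close to the shift of all genes.

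Genes of the cell death programme were called higher in 7 of 8 cases, against 35.5% of all genes, with a median of 1.40. These cases include PHLDA3, which passed the filter only through its A549 libraries. PHLDA3, which restrains the survival kinase AKT, showed the widest gap. It had 39.8 and 57.1 CPM in A549 shMETTL3 1 and 2 and 46.6 CPM in A549 shGFP, against 0, 0 and 0.0455 CPM in H1299. Over the line this was 2854 reads in A549 and 1 read in H1299, a ratio of 3050 after scaling (95% interval 547 to 120000, counting error only). CYFIP2, an actin regulator linked to p53-dependent apoptosis, differed by 3.36 and TP53I3, an oxidoreductase gene, by 2.46. BAX, the pore-forming effector of mitochondrial apoptosis, had 13.8 and 15.6 CPM in A549 shMETTL3 1 and 2 and 15.2 CPM in A549 shGFP, against 5.68, 4.18 and 5.64 CPM in H1299. Its libraries did not overlap between lines, and its log2 difference was 1.37. The nuclease gene AEN differed by 1.20, and TP53INP1, a nuclear cofactor of p53 and autophagy protein, by 1.43. TP53INP1 had 19.7 and 19.0 CPM in A549 shMETTL3 1 and 2 and 7.57 CPM in A549 shGFP. In H1299 it had 5.87, 4.51 and 3.82 CPM in the same order, so the shGFP libraries alone lay closer together.

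The BH3-only genes, whose products set off BAX and its relatives, differed less. PMAIP1, which encodes NOXA, had 14.8 and 25.7 CPM in A549 shMETTL3 1 and 2 and 15.9 CPM in A549 shGFP, against 11.3, 9.65 and 7.45 CPM in H1299. This was a log2 difference of 0.90 (SE 0.20, limma adjusted p = 0.00513), with no overlap between lines. BBC3, which encodes PUMA, gave 3.04, 3.68 and 2.79 CPM in A549 shMETTL3 1, shMETTL3 2 and shGFP, against 2.91, 2.64 and 3.05 CPM in H1299. The groups overlapped, with a log2 difference of 0.10 (adjusted p = 0.536). The 4 members with a full site differed by 0.90 (PMAIP1), 1.20 (AEN), 1.30 (FDXR) and 4.84 (GDF15). The median over all 31 members was 1.30, and a link between site and difference was not tested.

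All 3 receptors measured in both lines were called higher in A549, against 35.5% of all genes. TNFRSF10B, the death receptor DR5 for the ligand TRAIL, averaged 111 ± 16.1 CPM in A549 and 30.1 ± 3.79 CPM in H1299 (SD, n = 3 each), a log2 difference of 1.85. TNFRSF10C, a decoy receptor for TRAIL, differed by 0.97 and FAS, the receptor of FAS ligand, by 0.88. EDA2R, a receptor of the ectodysplasin family, had 16.3 and 17.6 CPM in A549 shMETTL3 1 and 2 and 14.7 CPM in A549 shGFP and was not analysed in H1299. The 3 repair genes were also called higher, against the same 35.5% of all genes. RRM2B, the p53-induced subunit of ribonucleotide reductase, differed by 1.68 and DDB2, which finds ultraviolet lesions in chromatin, by 1.55. XPC, the damage sensor of nucleotide excision repair, differed by 0.27 at an adjusted p of 0.0414, and this call was lost in 5 of the 6 fits that left out a library.

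Of the 4 metabolic and autophagy genes tested between lines, 3 were called higher and 1 lower, against 35.5% and 36.4% of all genes. FDXR, the mitochondrial ferredoxin reductase, differed by 1.30, TIGAR, a regulator of glycolysis, by 1.06 and the ceramidase gene ACER2 by 0.65. TP53INP2 was the second member lower in A549. This autophagy protein gene had 20.4 and 12.5 CPM in A549 shMETTL3 1 and 2 and 10.6 CPM in A549 shGFP, against 99.4, 104 and 95.9 CPM in H1299, a log2 difference of -2.75 (SE 0.19, limma adjusted p = 1.31e-05). Its paralog TP53INP1 differed in the opposite direction. SPATA18, which takes part in mitochondrial quality control, had 7.30 CPM in both A549 shMETTL3 libraries and 3.22 CPM in A549 shGFP and was not analysed in H1299.

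GDF15, a secreted stress cytokine of the TGF-beta family, was the single secreted member. It had 72.8 and 137 CPM in A549 shMETTL3 1 and 2 and 109 CPM in A549 shGFP, against 2.18, 1.82 and 4.32 CPM in H1299. The highest H1299 library thus lay far below the lowest A549 library, and the log2 difference was 4.84 (SE 0.26, limma adjusted p = 4.24e-06).

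**Figure D2:**
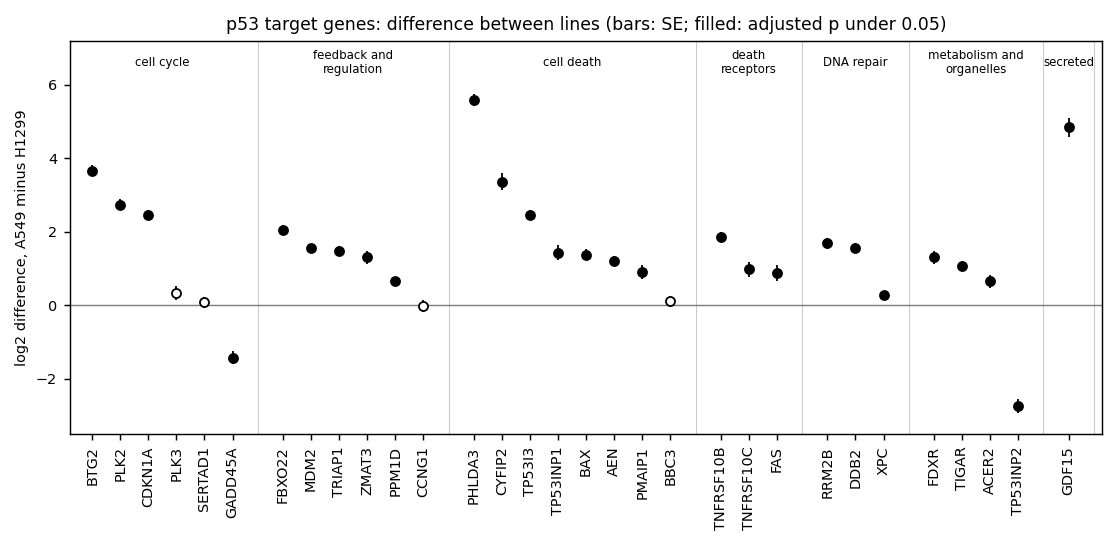
Log2 difference between A549 and H1299 for each member, on log2(CPM + 1), grouped by role, with standard errors from the limma fit; a positive value means higher in A549. The role groups have medians between 0.86 and 1.55 apart from the single secreted gene at 4.84, and negative values of over 1 stand at GADD45A and TP53INP2.

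Wider lists of the pathway were set beside the members. Of 42 other p53 targets, 36 entered the test between lines, and 17 (47.2%) were called higher and 4 (11.1%) lower in A549, against 35.5% and 36.4% of all genes, with a median log2 difference of 0.45. The 3 with the widest differences were RPS27L, a paralog of a ribosomal protein gene, at 3.67, the cytokine gene LIF at 3.41 and PERP, a desmosome protein gene, at 3.41. ABCA12, among the 17 called higher, passed the filter only through its A549 libraries, with at most 3 reads in any H1299 library. Of 25 regulators and partners of p53, 23 entered, and 10 were called higher and 10 lower, 43.5% each way and near those shares of all genes, with a median of 0.26. The widest differences there were negative. PPP1R13L, which encodes the p53 inhibitor iASPP, differed by -3.49, its relative PPP1R13B, which encodes ASPP1, by -2.10 and the chromatin adaptor gene DAXX by -1.99. Among the 10 called higher, TP63 passed the filter only through its A549 libraries, with at most 1 read in any H1299 library. It had 78 and 16 reads in A549 shMETTL3 1 and 2 and 18 in A549 shGFP. Neither ABCA12 nor TP63 could thus come out lower in A549.

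**Figure D3:**
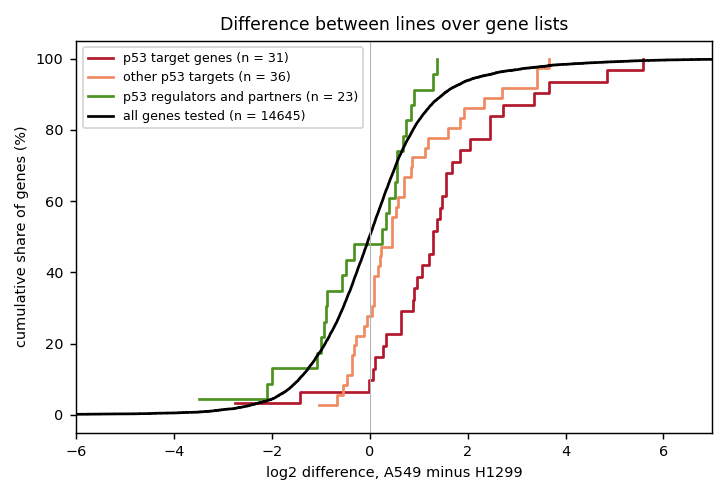
Cumulative share of genes in percent (y axis) by log2 difference between A549 and H1299 (x axis) for the p53 target genes, the other p53 targets, the regulators and partners, and all genes tested. The curve of the 31 members is shifted to the right, with a median of 1.30 against -0.01 for all genes.

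The second comparison asked whether the members changed when METTL3 was knocked down. No member passed the test in either line. In A549 limma called 0 of 17454 genes (0%), with 115 genes (0.659%) below an unadjusted p of 0.05, and edgeR on the recovered reads also called 0. In H1299 limma called 0 of 16470 genes (0%), with 99 (0.601%) below an unadjusted p of 0.05, while edgeR called 1, METTL3. Values below are deposited values, which are reads divided by 1 factor per library, and log2 ratios are on log2(value + 1) within a line. The fit within a line has 1 residual degree of freedom and assumes that the lone shGFP library varies like the knockdown libraries. METTL3 itself had a limma adjusted p of 1 in each line, so a member that misses this test is not shown to be unchanged.

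In A549, 14 of the 33 members lay above shGFP in both shMETTL3 libraries and 1 lay below, against 27.2% of all genes in each direction. Those above were CDKN1A, BTG2, MDM2, PPM1D, ZMAT3, BBC3, TP53INP1, CYFIP2, TNFRSF10C, EDA2R, XPC, RRM2B, SPATA18 and TP53INP2. PLK2 was the one below, with 690 and 992 in shMETTL3 1 and 2 against 996 in shGFP, the second ratio being 99.6%. With each library centred on its median, 14 members lay above in both and no member below, against 23.7% and 30.5% of all genes. The 2 libraries differed. In shMETTL3 1, 16 members lay above shGFP and 17 below, with a median log2 ratio of -0.01. In shMETTL3 2, 30 lay above and 3 below, with a median of 0.29. The medians of all genes were 0.02 and -0.01, so no majority of all genes lay above shGFP in shMETTL3 2. The exact shares of all genes in a single library were not counted. Both libraries share 1 control, so its own deviation enters both ratios.

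TP53INP1 had the largest mean ratio of the members in A549. It stood at 120 and 114 in shMETTL3 1 and 2, against 45.8 in shGFP, or 263 and 250% of the control. The 2 libraries were close to each other and far from the control, with a log2 change of 1.34 (SE 0.23, limma unadjusted p = 0.00271, adjusted p = 1). SPATA18 followed with 44.6 and 44.1 in shMETTL3 1 and 2, against 19.5 in shGFP, a log2 change of 1.15 (SE 0.27, limma unadjusted p = 0.0108, adjusted p = 1). CDKN1A had 343 and 384 in shMETTL3 1 and 2, against 245 in shGFP, a log2 change of 0.56 (SE 0.20, limma unadjusted p = 0.0413, adjusted p = 1). These 3 were also the members at least 1.25-fold above the control in both libraries, against 5.17% of all genes, and no member was 1.25-fold below in both, against 3.25%. MDM2 stood closer to its control, with 259 and 267 in shMETTL3 1 and 2 against 226 in shGFP.

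Other members showed how the A549 libraries parted. GDF15 had 445 in shMETTL3 1 and 829 in shMETTL3 2, on either side of 661 in shGFP. FAS stood at 95.7% of the control in shMETTL3 1 and at 171% in shMETTL3 2. PMAIP1 stood at 94.2 and 161%, and ACER2 at 99.1 and 161%. SERTAD1 ran the other way, with 131 and 97.5%. The 4 epithelial markers together stood at 4049 CPM in shMETTL3 1, 2930 CPM in shMETTL3 2 and 3024 CPM in shGFP. The library with the higher epithelial values was thus the one with fewer members above the control, and their part in the result was not tested.

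**Figure D4:**
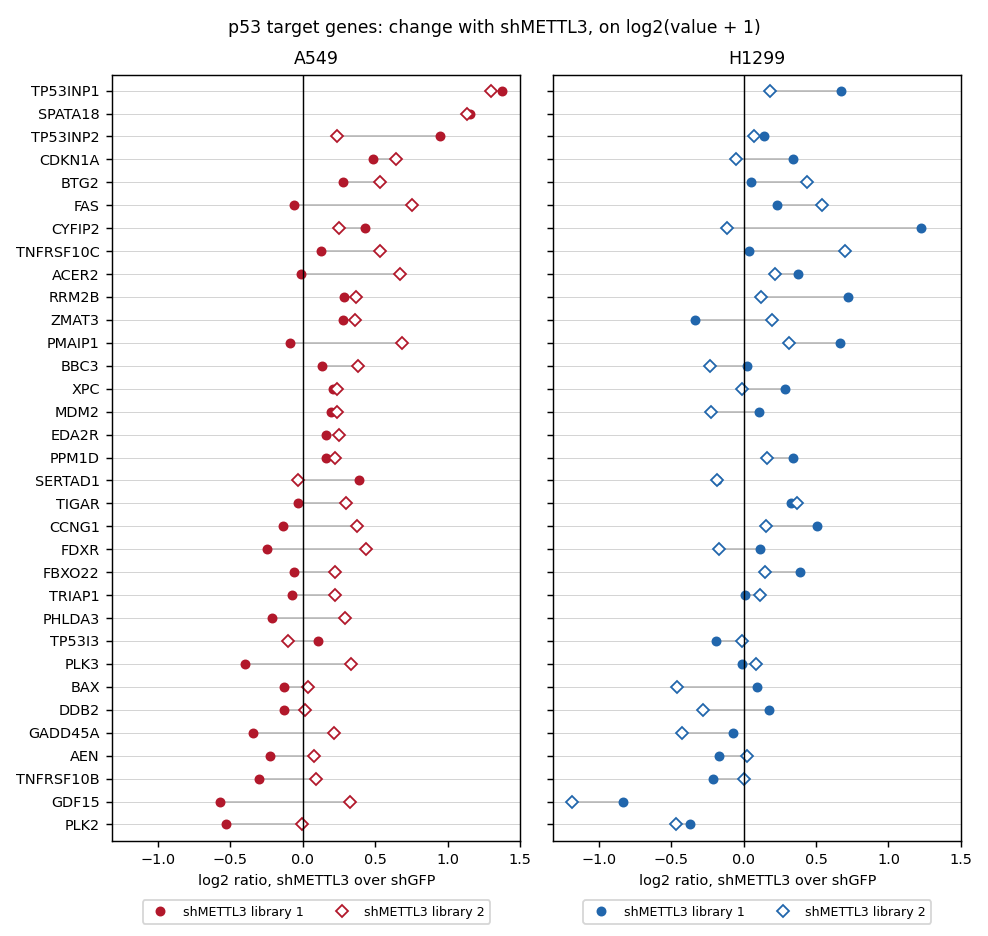
Log2 ratio of shMETTL3 over shGFP for each member, on log2(value + 1), in A549 (left) and H1299 (right), with library 1 as filled circles, library 2 as open diamonds and a grey line between them. In A549 the diamonds lie to the right of 0 for 30 of 33 members and the circles for 16, and TP53INP1 and SPATA18 lie farthest right. The median ratio of all genes in A549 was 0.02 for library 1 and -0.01 for library 2.

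In H1299, 30 members were measured; PHLDA3 fell below the minimum mean of 1. Of these, 13 lay above shGFP in both shMETTL3 libraries and 5 below, against 30.6% and 24.5% of all genes. With each library centred on its median, 11 lay above and 8 below, against 27.3% and 31.1% of all genes. Without the centring, those above were TP53INP1, TP53INP2, BTG2, RRM2B, PPM1D, TNFRSF10C, TIGAR, PMAIP1, FAS, ACER2, CCNG1, TRIAP1 and FBXO22, and those below GDF15, PLK2, TP53I3, GADD45A and SERTAD1. The median log2 ratio of the members was 0.11 in shMETTL3 1 and 0.05 in shMETTL3 2, where the medians of all genes were 0.09 and -0.04. At the 1.25-fold limit, TIGAR alone lay above in both libraries and GDF15 and PLK2 below, against 4.97% and 2.7% of all genes.

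GDF15 in H1299 stood at 10.0 and 7.6 in shMETTL3 1 and 2, against 18.6 in shGFP, from at most 95 reads a library. The log2 change was -1.01 (SE 0.35, limma unadjusted p = 0.0312, adjusted p = 1). PLK2 had 85.8 and 80.4 in shMETTL3 1 and 2, against 111.6 in shGFP, or 76.9 and 72.0% of the control. CDKN1A had 45.1 and 34.2, against 35.5 in shGFP, and MDM2 had 64.9 and 51.2, against 60.2. For both, 1 library lay above and 1 below the control. CYFIP2 parted most, with 14.2 in shMETTL3 1 and 5.0 in shMETTL3 2, against 5.5 in shGFP. TP53INP1 had 26.9 and 18.8, against 16.5 in shGFP. The fibroblast marker COL1A1 stood at 30 and 32.2 in H1299 shMETTL3 1 and 2, against 12.5 in shGFP, a log2 change of 1.25 (SE 0.30, limma unadjusted p = 0.00728, adjusted p = 1). In A549 it stood at 91.8 and 72.2 in shMETTL3 1 and 2, against 59.7 in shGFP. Its part in the members' values was not tested.

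**Figure D5:**
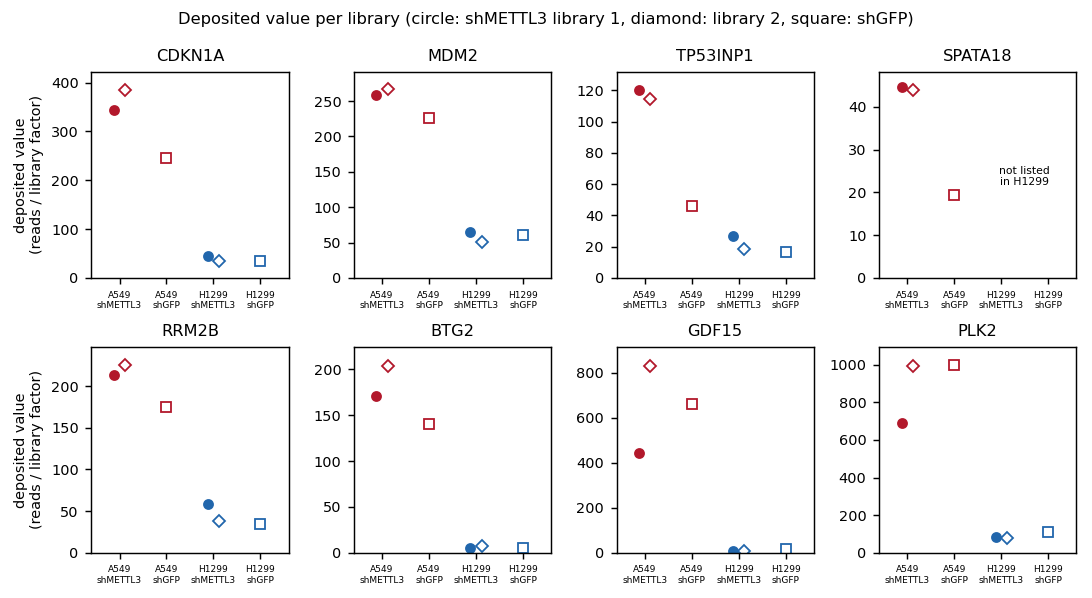
Deposited value of 8 members in each library, on axes that start at 0, with shMETTL3 library 1 as filled circles, library 2 as open diamonds and shGFP as squares, A549 in red and H1299 in blue. For TP53INP1 and SPATA18 both A549 knockdown libraries lie at over 2 times the control, and for GDF15 they lie on either side of it.

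Over both lines, 6 of the 30 members measured in each lay above the control of their line in all 4 shMETTL3 libraries, namely TP53INP1, TP53INP2, BTG2, RRM2B, PPM1D and TNFRSF10C, against 10.5% of all genes. PLK2 lay below in all 4, against 9.05%, though at 99.6% of the control in A549 shMETTL3 2. With each library centred on its median, no member lay below in both A549 libraries. limma called 0 of 15546 genes (0%) over both lines, with 374 (2.41%) below an unadjusted p of 0.05, and edgeR called 1, METTL3. TP53INP1 was the only member below an unadjusted p of 0.05 there, with a log2 change of 0.88 (SE 0.25, limma unadjusted p = 0.00721, adjusted p = 1). The difference of the knockdown effect between A549 and H1299 was tested as an interaction, and limma and edgeR each called 0 of 15546 genes (0%), with 49 (0.315%) and 76 below an unadjusted p of 0.05. For TP53INP1 that difference was 0.91 (SE 0.43, limma unadjusted p = 0.0732), so its change was not shown to differ between lines.

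The wider lists held no call either. Of the 42 other p53 targets, 19 (45.2%) lay above and 8 (19%) below shGFP in both A549 shMETTL3 libraries, against 27.2% of all genes each way. Of the 38 measured in H1299, 12 (31.6%) lay above and 7 (18.4%) below, against 30.6% and 24.5% of all genes. Among the largest changes over both lines were those of SESN1, a stress-induced inhibitor of mTORC1 signalling, at 0.49 and APAF1, the scaffold of the apoptosome, at 0.39. Of the regulators and partners, 5 of 23 (21.7%) lay above and 5 below in A549, and 7 of 24 (29.2%) above and 6 (25%) below in H1299, close to the same shares of all genes. HIPK2, a kinase of p53, had -0.30, the ubiquitin ligase gene COP1 0.26 and PPP1R13B 0.23. These are means over libraries that did not all share a sign. HIPK2 had 0.17 and -0.925 in A549 shMETTL3 1 and 2, and 0.06 and -0.51 in H1299. PPP1R13B had 0.75 and -0.21 in A549, and SESN1 had 0.64 and -0.32 in H1299. COP1 and APAF1 lay above the control in every shMETTL3 library. The adjusted p was 1 for each of these 5 genes.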

How the data were processed

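RNA-seq of 6 libraries was used. The deposited tables hold a signal per gene, which tested as whole read numbers after division by the authors, with 1 factor for each library. Values in H1299 carry 1 decimal and fit whole reads within that rounding. Bowtie, TopHat and hg19 are named without versions per the submitters' processing notes; the counter, the annotation and what the factors rest on are not given in the sources used here. Knockdown was tested within a line on log2(value + 1), mean at least 1, with limma 3.58.1 in R 4.3.3 (eBayes with trend), and over both lines with a line term. Lines were compared on CPM of recovered reads scaled together by TMM (edgeR 4.0.16), with knockdown as a covariate. Benjamini-Hochberg adjustment ran over all genes, with 0.05 as the threshold. Of the 19806 genes used from both tables, date-like and repeated names had been left out. Alternatives were edgeR's quasi-likelihood test on recovered reads, DESeq2 1.42.0 size factors, other scalings, filters and pseudocounts, a replicate block, and leaving out each library; edgeR worked on H1299 reads recovered from rounded values. All 33 members are named. From the wider lists MDM4 and the 3 genes with the largest absolute difference between lines and with the largest absolute knockdown change are named, besides METTL3 and line markers. ABCA12 and TP63 are named for passing the filter through A549 alone. Members and lists were chosen with earlier results of these data known. CDKN2A is named as a line marker, and 2 genes that the rule would name are not reported here. The m6A peak lists were not used here, since no annotation of their build was at hand.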

Additional observations from a re-analysis of the deposited data

How the results depend on the processing

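The knockdown tests called 0 members under every alternative run, which says little about stability, since METTL3 itself was called in A549 under none of them. Over all genes, the count over both lines became 1 with median centring, with edgeR and with the replicate block, and the H1299 count became 1 with edgeR; the gene was METTL3 each time. Deviations of same-numbered libraries correlated across 10114 genes (r = 0.37), but 2 pairs and no label make this a shared number only; with the block, calls between lines were 11237 against 10531. Between lines, members called ranged from 23 to 29 higher and stayed at 2 lower. CCNG1, at -0.02 in the main fit, was 0.44 with scaling to the total and 0.46 on deposited values, and was called in both. It was 0.015 with edgeR and -0.16 to 0.15 with a library left out. SERTAD1 was -0.077 to 0.20 with a library left out. XPC lost its call with no trend (adjusted p = 0.0600), and ACER2 lost its call without A549 shGFP, H1299 shGFP or H1299 shMETTL3 1. PLK3 gained one without A549 shMETTL3 1 (adjusted p = 0.0154). Added after seeing the data, a 1.25-fold limit left 3 members above and 0 below shGFP in both A549 libraries, and 1 above and 2 below in H1299. Also added then, median centring with no limit of size gave 14 above and 0 below in A549 (14 and 1 without centring). Of all genes, 23.7% lay above and 30.5% below there. In H1299 centring gave 11 above and 8 below (13 and 5 without), against 27.3% and 31.1% of all genes. SPATA18 has no value in fits of both lines. The planned counts of m6A peaks in the members were not run. Few reads limit the H1299 values of GDF15, BTG2, CYFIP2, FAS, TNFRSF10C, BBC3 and PHLDA3.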
